A study of Mus musculus with 2 samples.

Results

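Shallow cells are the sorted cells of this series with fewer than 2000 unique molecular identifiers (UMIs, the counts of captured RNA molecules). They numbered 2520 of 42766 cells, 1305 of 18374 in the VEH library and 1215 of 24392 in the LEM library. They were chosen by their total count alone, so a low total is no finding about them. Their summed counts were set beside those of 24688 reference cells with 4000 to below 8000 counts, 10237 VEH and 14451 LEM.

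All cells came from PSAPP mice, which carry the APPswe/PS1δE9 transgenes for mutant amyloid precursor protein and presenilin, deposit amyloid plaques, and here served as both the control and the treated animals. From 9 months of age, mice received vehicle (VEH) or lemborexant (LEM, a dual orexin receptor antagonist, 30 mg/kg/day) by daily oral gavage for 1 month. Live CD45loCD11b+DAPI- cells, the gate for microglia, were sorted from the cortex and hippocampus of 1 hemisphere, with 5 mice pooled for each treatment and 1 10x Genomics 5′ library made of each pool. No replicate of a treatment exists, so treatment and library cannot be told apart and no p-value is given. Ranges in parentheses are exact 95% intervals that cover counting error only.

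The UMI count of a cell depends on how much RNA it held and how much of it was captured, which cannot be told apart here. RNA is not evenly spread within a cell. Unspliced transcripts of long genes and long noncoding RNAs such as Malat1 and Neat1 stay in the nucleus, while messages for ribosomal proteins, the respiratory chain and the cytoskeleton are abundant in the cytoplasm. Gm42418, AY036118, Gm26917 and part of the Lars2 message resemble or overlap ribosomal RNA, and their reads can come from ribosomal RNA or its precursor.

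The markers given for shallow cells were Gm42418 and Lars2. The sequences below show the overlapping strands at the locus of the first and a stretch of the second that is shared with Gm15564. Gm15564 lies on chromosome 16 and Lars2 on chromosome 9, so these 2 genes share sequence and do not overlap. They are read from GENCODE M21 transcripts on the GRCm38 build. Gm42418 is a noncoding gene of 1 exon at chr17:39846958-39848788 on the plus strand. AY036118, 923 bases long, lies wholly inside it on the minus strand (chr17:39847113-39848035), so that reads of the pair are parted by strand only. The first 40 bases of AY036118 and the same interval read as Gm42418 (chr17:39847996-39848035) are given first. The Lars2 line gives 30 of the 52 bases in its 3′ UTR (chr9:123462048-123462077, plus strand) that are identical to a transcript of Gm15564.
AY036118: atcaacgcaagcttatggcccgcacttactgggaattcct
Gm42418: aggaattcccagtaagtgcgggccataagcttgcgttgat
Lars2: gaattcaccaagcgttggattgttcaccca

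Shallow cells were a larger share of the VEH library (7.10%, 6.74–7.48) than of the LEM library (4.98%, 4.71–5.26), which is -0.51 as a log2 ratio of LEM over VEH (-0.62 to -0.40). They held 1.56% of all VEH counts and 1.04% of all LEM counts. The median shallow cell had 1403 counts and 857 genes in VEH and 1394 counts and 833 genes in LEM, where the reference cells had 5937 and 5867 counts. The fewest genes in any cell were 501, since the authors removed cells below 500 genes, so shallow cells with fewer genes are not seen here. Median mitochondrial shares were lower in the shallow cells (0.514% VEH, 0.534% LEM) than in the reference cells (0.598% and 0.633%). Cells with over 2% mitochondrial counts were more frequent among them (3.45% and 5.27% against 0.342% and 0.388%), up to the limit of 2.5% set by the authors.

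**Figure D1:**
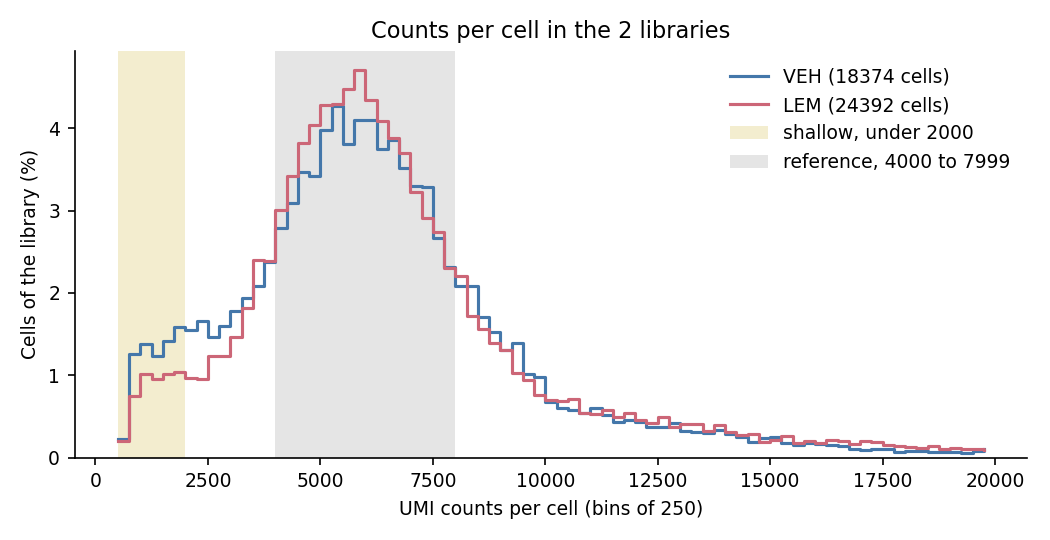
Share of the cells of each library (y axis, percent) by UMI counts per cell (x axis, in bins) for the VEH and LEM libraries. Cells under 2000 counts lie on the low flank of a peak between 4000 and 8000 counts, and no gap separates them from deeper cells.

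The cells just inside and just outside the limit had the following composition. In VEH, the 123 cells with 1900 to below 2000 counts held 1.5% of counts in Gm42418, 1.25% in Malat1 and 4.60% in ribosomal protein genes. The 130 VEH cells with 2000 to below 2100 counts held 1.26%, 1.26% and 3.94%. In LEM, the 108 cells just inside the limit held 1.23%, 1.32% and 5.02%, and the 98 just outside it 1.29%, 1.35% and 4.70%. Lars2 took 0.0923% of counts inside and 0.106% outside the limit in VEH, and 0.110% and 0.129% in LEM. Microglial genes took 13.4% inside and 12.1% outside in VEH, and 12.26% and 12.30% in LEM.

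As a sum, the shallow cells were microglial by their markers. The sort, and the exclusion of non-microglial clusters that the paper reports, select for this, so it is no finding about shallow cells. The 35 microglial genes took 13.6% of shallow counts in VEH and 13.7% in LEM, a little under the 15.7% and 15.1% of reference cells. All 35 passed the expression filter of a mean CPM (counts scaled to the same summed total) of at least 20, and 19 were lower (54.3%) and 6 higher (17.1%) than in reference cells in both libraries. Over all 6780 genes tested, 32.1% were lower and 37.3% higher in both. The lower ones included P2ry12, the purinergic receptor of homeostatic microglia, and the fractalkine receptor Cx3cr1. P2ry12 stood at 3360 CPM in VEH and 2306 CPM in LEM, against 4541 and 4363 CPM in reference cells (log2 ratios -0.43 and -0.92). VEH cells with 2000 to below 3000 counts were likewise low in P2ry12, at 3345 CPM. Cx3cr1 differed by -0.18 and -0.49. The complement gene C1qa was lower in VEH (-0.14) and higher in LEM (0.15), and Cst3, the secreted protease inhibitor cystatin C, was lower in VEH (-0.24) and at 0.00 in LEM. The 6 higher genes were the integrin Itgam, Ptprc (CD45), the engulfment receptor Mertk, the receptor Tgfbr1, and the transcription factors Sall1 and Zfhx3, the last at 0.36 and 0.42.

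Markers of other brain and blood cells, which the sort and the reported exclusion of clusters select against, were mostly rare. The 7 neuronal genes gave 18 counts in VEH and 15 in LEM among the 1808213 and 1675875 counts of shallow cells, 9.95 and 8.95 CPM against 0.837 and 0.762 CPM in reference cells. Neuronal RNA was therefore more frequent per count but rested on few molecules. The 5 T cell genes gave 0 and 1 counts, the 4 NK cell genes 0 and 0, and the 7 genes of border-associated macrophages (BAM) 26 and 13. The 4 B cell genes gave 172 and 139 counts (95.1 and 82.9 CPM, against 109.6 and 110.9 CPM in reference cells). The 6 oligodendrocyte genes gave 122 and 129 counts (67.47 and 76.97 CPM, against 58.6 and 61.6 CPM). Choroid plexus genes were the most frequent of these (577 and 3813 counts) and sat almost wholly in a single subgroup described further on.

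Few genes differed at least 2-fold in the summed profiles of both libraries. Of 6780 genes tested, 4 were at least 2-fold higher in both libraries (0.059% of genes) and 0 were at least 2-fold lower in both (0% of genes). At a mean CPM of at least 5 in place of 20, 26 of 10030 genes were higher and 2 lower. At 50, 2 of 3546 genes were higher and 0 lower. The filter averages shallow and reference CPM, so a gene can pass through its shallow counts alone. Of the 4 genes, Iqcn and Il31ra were below 20 CPM in reference cells of both libraries. With 1 library per treatment these are calls by size of difference, not by a test. Log2 ratios had medians of 0.03 in VEH and 0.01 in LEM. The sign of the ratio differed between the libraries for 30.6% of genes.

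Genes that resemble or overlap ribosomal RNA were in excess as a list in both libraries, and its members differed in extent. The 4 measured members of that list took 2.0% of shallow counts in each library against 1.32% in reference cells, a log2 ratio of 0.60 (0.59–0.62) in VEH and 0.60 (0.59–0.62) in LEM. Gm42418 held 15620 CPM in VEH and 15879 CPM in LEM shallow cells, against 9804 and 9969 CPM in reference cells, so its log2 ratio was 0.67 in both. Lars2, which encodes a mitochondrial leucyl-tRNA synthetase, stood at 1213 CPM in VEH and 1424 CPM in LEM, against 865 and 802 CPM (0.49, 0.43–0.55, and 0.83, 0.77–0.89). AY036118, on the strand opposite to Gm42418, was at 0.24 in VEH and -0.03 in LEM, although it shares the locus. Its values went both ways among the subgroups described below, with 0.54 and 0.73 in subgroup 0 and -1.24 and -2.16 in subgroup 2. Gm26917, a noncoding gene next to Gm42418 at chr17:39843013-39846341, was 1.47 (1.34–1.58) and 2.0 (1.90–2.11) higher on the log2 scale, the largest mean difference of all genes tested. Without the 164 cells of subgroup 4, described below, it was at 0.13 (-0.07 to 0.32) in VEH and 0.81 in LEM. Gm26917 led that subgroup, so a lower value without it was built in.

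Nuclear-retained RNAs took a larger share of the summed counts of shallow cells. The list took 1.14% of counts in each library, against 0.903% of VEH and 0.877% of LEM reference counts (log2 ratios 0.33 and 0.38). With a limit of 1500 counts these ratios were 0.14 and 0.16. In cells thinned to 1000 counts, the median share was 0.9% in VEH shallow and 0.8% in reference cells, and 0.8% in both classes in LEM. Of its 12 genes, 7 passed the expression filter and all 7 were higher in both libraries, where 37.3% of all genes were. Malat1, the most abundant of them, held 10868 CPM in VEH and 10834 CPM in LEM, against 8676 and 8422 CPM (0.33 and 0.36). Neat1, the scaffold of paraspeckles, differed by 0.60 and 0.81 and Pvt1, a noncoding neighbour of Myc, by 0.47 and 0.77. Kcnq1ot1, an imprinted antisense RNA, differed by 0.15 (-0.20 to 0.48) in VEH and 0.65 (0.36–0.92) in LEM. The imprinted neuronal noncoding RNA Meg3 was below the filter, with 3 counts in VEH and 6 in LEM.

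Mitochondrially encoded transcripts differed little. The 13 protein-coding genes of the mitochondrial genome took 0.674% of VEH and 0.732% of LEM shallow counts, against 0.648% and 0.684% in reference cells (log2 ratios 0.06 and 0.10). Of these genes 8 (61.5%) were higher and 1 (7.69%) was lower in both libraries, against 37.3% and 32.1% of all genes. The cytochrome oxidase subunit mt-Co1 was at 0.03 and -0.03, and mt-Cytb at 0.12 and 0.18. The direction is not stable, since with a limit of 1500 counts in place of 2000 the list stood at -0.13 and -0.12.

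The summed share of ribosomal protein genes went opposite ways in the 2 libraries. They took 4.90% of shallow counts in VEH against 5.08% of reference counts (-0.05, -0.06 to -0.04), and 6.22% in LEM against 5.34% (0.22, 0.21–0.23). In cells thinned to 1000 counts, the median share was lower in shallow than in reference cells of both libraries, 4.4% against 4.9% in VEH and 4.95% against 5.1% in LEM. Of 79 genes, 23 were higher (29.1%) and 21 lower (26.6%) in both libraries, shares below the 37.3% and 32.1% of all genes, with medians of -0.08 in VEH and 0.22 in LEM. The 75 nuclear genes of oxidative phosphorylation showed the same split of -0.12 and 0.12. Without the 108 cells of a subgroup described below as subgroup 5, the ribosomal list stood at -0.24 in VEH and 0.06 in LEM, and the oxidative phosphorylation list at -0.24 and -0.0030.

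Messages for lysosomal and cytoskeletal proteins were lower. Of 44 lysosomal genes, 31 were lower in both libraries (70.5%, against 32.1% of all genes) and 0 were higher in both (37.3% of all genes), with 4.83% of VEH counts against 5.60% (-0.21) and 4.41% of LEM counts against 5.97% (-0.44). The cathepsin gene Ctss differed by -0.27 and -0.63, and Lamp1, a lysosomal membrane protein, by -0.23 and -0.79. The 27 cytosol and cytoskeleton genes stood at -0.20 and -0.22, with Tmsb4x, an actin-binding thymosin, at -0.37 and -0.54. In VEH neither difference was particular to shallow cells. VEH cells with 2000 to below 3000 counts held 4.61% in lysosomal and 1.95% in cytosol and cytoskeleton genes. For the second list, VEH shallow cells held 2.16% and VEH reference cells 2.48%. Among the 15 lowest genes by mean log2 ratio were the membrane protein gene Serinc3 (-0.42, -1.08), the adenosine receptor gene Adora3 (-0.39, -1.04), Kdelr1, which returns proteins to the endoplasmic reticulum (-0.50, -0.84), and Derl2, of the degradation pathway of the endoplasmic reticulum (-0.51, -0.82). Msmo1, an enzyme of cholesterol synthesis, was the lowest (-0.71, -1.10).

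The 15 highest genes held several very long ones. Cux2, Rbfox1, Cacnb4, Peak1, Tmtc2, Ank and Tex2 each span over 100 kb, 7 of the 15, as do 0 of the 15 lowest and 14.5% of all genes tested. Peak1, a pseudokinase gene, stood at 237 CPM in VEH and 271 CPM in LEM, against 140 and 121 CPM in reference cells (0.75 and 1.16). Rbfox1, a splicing regulator known from neurons, was at 0.98 and 1.08, and Cux2, a homeobox gene, at 0.89 and 1.29. The chromatin methyltransferase gene Kmt2d differed by 0.74 and 1.24. Rbfox1, Cacnb4, Tex2, Iqcn and Il31ra were below 20 CPM in reference cells of both libraries and passed the filter only through their shallow counts. Cux2, Kmt2d and Spred2 were below 20 CPM in reference cells of 1 library. The other genes at least 2-fold higher in both were Cst7, Iqcn (1.01 and 1.68) and Il31ra, a cytokine receptor gene (1.17 and 1.41). Cst7, an inhibitor of lysosomal proteases and a marker of disease-associated microglia (DAM), held 150 counts (83.0 CPM) in VEH and 138 counts (82.3 CPM) in LEM, against 30.7 and 27.2 CPM in reference cells (1.43 and 1.6). The DAM list as a whole was lower, at -0.12 in VEH and -0.17 in LEM. Of its 16 genes that passed the filter, 5 were higher (31.3%) and 6 lower (37.5%) in both libraries, against 37.3% and 32.1% of all genes. Without subgroup 5, described below, Cst7 was at -0.63 in VEH and 1.00 in LEM. Without subgroup 4 Iqcn was at -0.12 and 0.49 and Il31ra at 0.98 and 1.25. None of these stayed 2-fold higher in both, though Il31ra missed the limit only narrowly and only in VEH. Cst7 and Iqcn were leading genes of the subgroup left out, and the reference cells were kept whole. Lower values of these 2 genes were therefore built in.

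The ratio followed gene span, most clearly among the longer genes. Genes that span over 100 kb took 17.1% of VEH and 16.6% of LEM shallow counts, against 14.2% and 13.8% in reference cells (0.27 in both). Of the 982 such genes that passed the filter, 809 were higher in both libraries (82.4%, against 37.3% of all genes). Among the 675 genes with the longest span the median log2 ratio was 0.30 in VEH and 0.34 in LEM. Among the 675 with the shortest span it was -0.10 in VEH and 0.05 in LEM, so the libraries parted at the short end. Across the 6742 genes with a known span, Spearman's rho between span and log2 ratio was 0.51 in VEH and 0.32 in LEM. Transcript length gave 0.49 and 0.29. The values come from genes of the same summed cells and are not independent points.

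**Figure D2:**
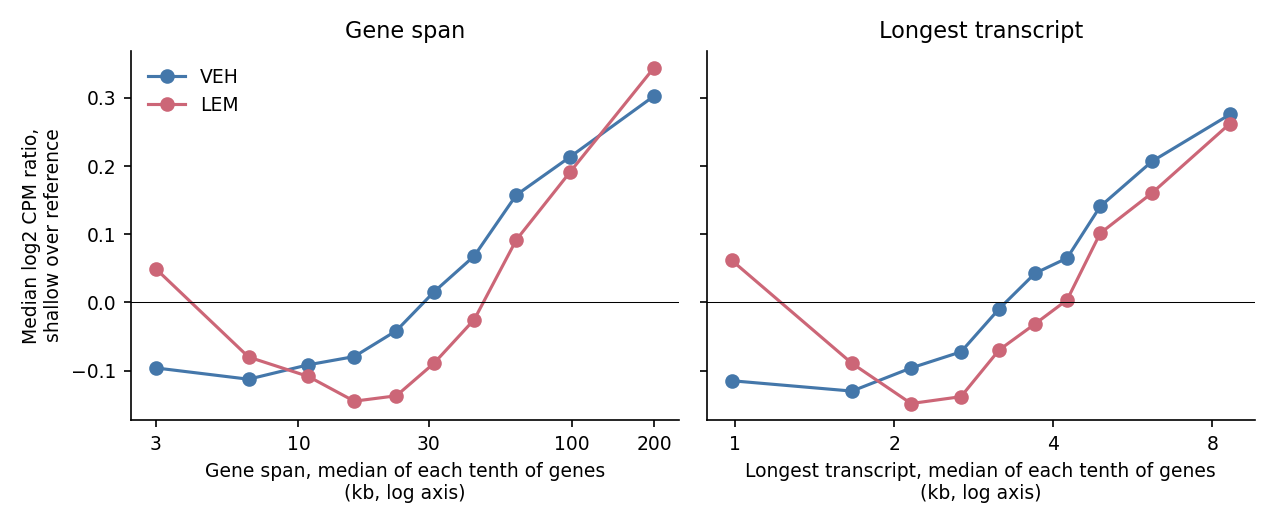
Median log2 CPM ratio of shallow over reference cells (y axis) for 10 groups of genes of equal size ordered by gene span (left) or longest transcript (right; x axes, kb, log scale), 1 line per library. In both libraries the ratio climbs from the middle groups to the longest, where it reaches 0.30 in VEH and 0.34 in LEM by span, while the shortest group is at -0.10 in VEH and 0.05 in LEM.

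Composition did not follow depth in a single direction, and shallow cells were not uniform in it. The ribosomal RNA-like share was highest below 1000 counts, at 2.21% of VEH and 2.47% of LEM counts, and was 1.20% and 1.07% at 3000 to below 4000 counts. The nuclear-retained share was 0.890% and 0.996% below 1000 counts, 1.25% and 1.29% at 1500 to below 2000 counts, and 1.27% and 1.30% at 2000 to below 3000 counts. Genes over 100 kb were likewise highest at 2000 to below 3000 counts, with 19.0% in each library. The nuclear profile was thus most marked around the limit and outside it, and the ribosomal RNA-like profile deep inside it.

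**Figure D3:**
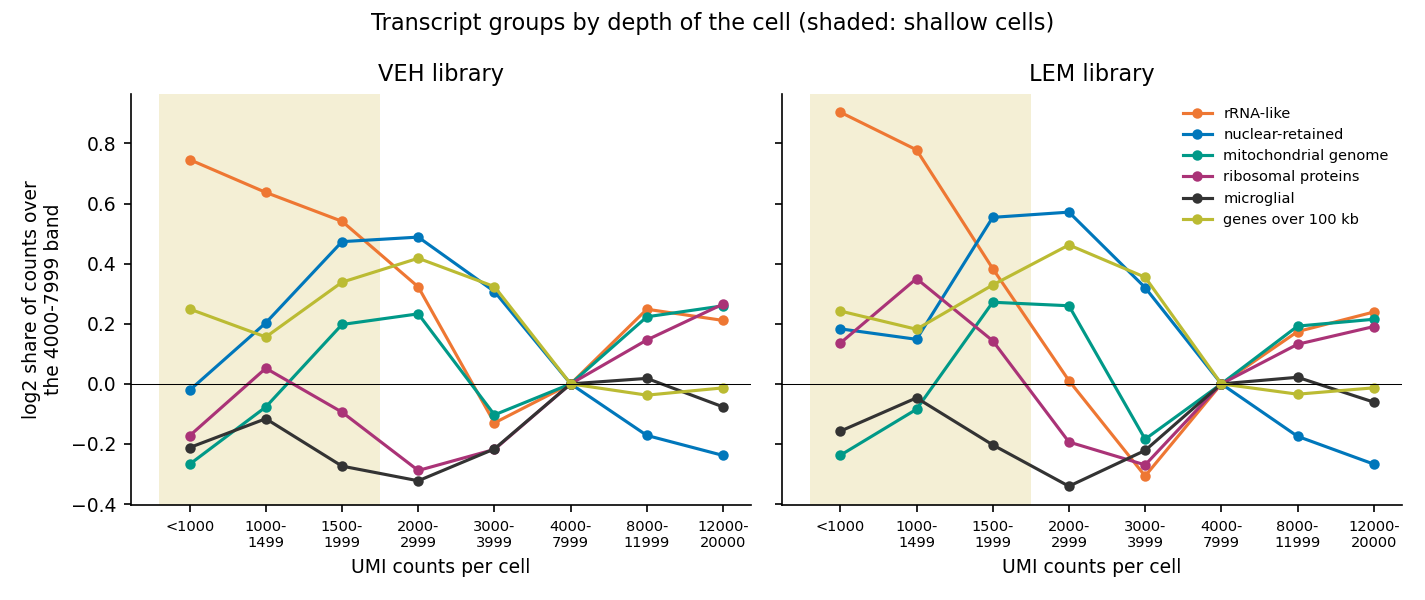
Share of counts in 6 transcript groups by counts per cell, as log2 over the share in cells of 4000 to below 8000 counts (y axis), for VEH (left) and LEM (right); shading marks shallow cells. Ribosomal RNA-like transcripts are highest below 1000 counts, and nuclear-retained transcripts peak between 1500 and 3000 counts in both libraries.

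To compare cells at equal depth, the 1033 VEH and 984 LEM shallow cells with at least 1000 counts and all reference cells were thinned to 1000 counts, which left out 272 VEH and 231 LEM shallow cells. The median number of genes at this depth hardly differed, with 681 genes in VEH shallow and 680 in reference cells and 680.5 and 686 in LEM. Low-complexity cells of at most 500 genes were more frequent among shallow cells, at 1.84% in VEH and 3.25% in LEM against 0.0977% and 0.187%. The spread in composition was larger too. The SD over cells of the ribosomal protein share was 4.37 percentage points in VEH and 5.88 in LEM shallow cells, against 1.99 and 1.98 in reference cells.

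Both tails of that spread were filled. Less than 2% of counts in ribosomal protein genes was found in 22.6% of VEH and 26.8% of LEM shallow cells, against 4.50% and 2.62% of reference cells. More than 10% was found in 8.23% of VEH and 22.2% of LEM shallow cells, against 1.62% and 1.85%. Genes over 100 kb took more than 25% of counts in 15.4% and 22.0% of shallow cells (3.96% and 2.17% of reference cells), and less than 7% in 7.55% and 19.7% (0.801% and 0.969%). The tails of low ribosomal share and high long-gene share were not particular to shallow cells. At 2000 to below 3000 counts, 30.2% of VEH and 38.9% of LEM cells were below 2% in ribosomal protein genes, and 23.9% and 29.4% were above 25% in genes over 100 kb. At 12000 to 20000 counts, 10.4% of VEH and 7.96% of LEM cells were above 10% in ribosomal protein genes, so in LEM this tail was more frequent in shallow cells. Less than 7% in genes over 100 kb was found in 4.94% of VEH and 10.9% of LEM cells at 2000 to below 3000 counts. The same was found in 1.14% and 1.72% at 12000 to 20000 counts, so this tail was most frequent in shallow cells. These limits were set after the values had been seen.

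Clustering of the shallow cells alone gave 6 subgroups. The values that follow describe them and test nothing, since the same genes formed the clusters. Subgroup 0, the largest with 1098 cells, differed from reference cells most in its ribosomal RNA-like share among the 9 transcript groups plotted (log2 ratio 0.68 in VEH and 0.92 in LEM). Its mitochondrial genome share was at -0.32 and -0.26, its interferon genes at -0.39 and -0.18, and its genes over 100 kb at 0.07 and 0.23. Its microglial share was at -0.08 and -0.17, its P2ry12 level at -0.06 and -0.19, and its lysosomal share at 0.01 and -0.03. It held 54.8% (52.0–57.5) of VEH shallow cells and 31.5% (28.9–34.2) of LEM shallow cells.

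Subgroup 1, with 473 cells, was rich in short cytoplasmic messages and poor in nuclear ones. Ribosomal protein genes took 9.98% of its VEH and 10.8% of its LEM counts (log2 ratios 0.97 and 1.01 over reference cells), and nuclear oxidative phosphorylation genes stood at 0.83 and 0.80. Genes over 100 kb were at -0.92 in both, Malat1 at -1.37 and -1.29, and the mitochondrial genome at -0.77 and -0.86. Within the microglial list, whose total was higher (0.48 and 0.47), P2ry12 was at -1.74 and -2.16. Lars2 was at 1.59 and 1.69, and 19.6% of the Lars2 counts of VEH shallow cells and 55.6% of those of LEM shallow cells came from this subgroup. It held 8.81% (7.33–10.5) of VEH and 29.5% (26.9–32.1) of LEM shallow cells, the largest difference between the libraries in percentage points after subgroup 0.

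Subgroups 2 and 4 had the opposite profile. In the 405 cells of subgroup 2, Malat1 reached 23849 CPM in VEH and 25356 CPM in LEM (1.46 and 1.59), while ribosomal protein genes were at -2.58 and -2.90 and the microglial list at -1.26 and -1.42. Mitochondrial transcripts (0.82 and 1.02) and immediate early genes (0.61 and 0.73), which cells switch on within minutes of a stimulus, were higher in the same cells. The 164 cells of subgroup 4 were led by Gm26917, at 3865 CPM in VEH and 3483 CPM in LEM (4.97 and 4.92). They held 62.7% and 59.6% of all Gm26917 counts of shallow cells. Genes over 100 kb took 41.6% and 39.8% of the counts of subgroup 4, ribosomal protein genes only 0.453% and 0.587%, and the cytoskeletal list was at -2.61 and -2.35. Microglial genes took 3.74% and 3.97% of the counts of subgroup 4 (-2.07 and -1.93). Subgroup 2 held 15.8% of VEH and 16.4% of LEM shallow cells, with overlapping intervals, and subgroup 4 held 5.13% (4.0–6.47) and 7.98% (6.52–9.65).

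Subgroup 3, with 272 cells, was near the reference in ribosomal protein genes (0.06 and -0.01) and in the microglial list (0.05 and 0.05). Interferon genes, among them Ifit3, Irf7 and Oasl2 of its 20 leading genes, took 0.192% and 0.227% of its counts (0.95 and 0.52). Proliferation genes were at -0.32 (-0.79 to 0.10) in VEH and 1.34 (1.07–1.6) in LEM, from 44 and 124 counts. Gm42418 stood at -0.13 in VEH and -0.62 in LEM, and Lars2 at -0.39 and -1.01, so that both markers of shallow cells were below the reference level here. Lars2 was not raised in subgroups 2 (-0.30 and -0.06) and 4 (0.08 and -0.13) either.

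Subgroup 5, with 108 cells, held RNA of different kinds and is left unnamed. Its 20 leading genes had 3 markers of choroid plexus, the epithelium that makes cerebrospinal fluid, and 3 of DAM. Ttr, the transthyretin gene of choroid plexus, reached 6019 CPM in VEH and 50261 CPM in LEM, and 99.1% and 99.8% of the Ttr counts of shallow cells lay here. Only a few cells carried it, as 3 of 60 VEH and 7 of 48 LEM cells had over 1% of counts in choroid plexus genes. MHC class II genes, which present antigen, took 0.689% of its counts in VEH and 0.0479% in LEM, and 12 VEH cells and 1 LEM cell had over 0.5% of counts in them. No cell passed both limits, 0 of 60 in VEH and 0 of 48 in LEM, and most cells passed neither. Ribosomal protein genes took 16.5% and 21.2% of counts, and Malat1 was at -2.22 and -3.70.

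Subgroup 5 also carried much of the Cst7 signal. It gave 77.3% of the Cst7 counts of VEH shallow cells and 37.0% of those of LEM shallow cells. In LEM, 52.9% of Cst7 counts came from subgroup 0, where Cst7 stood at 2.54 over reference cells, against -0.19 in VEH. Without subgroup 5 the MHC class II gene Cd74 was at -0.53 in VEH and -0.68 in LEM, where all shallow cells gave 1.28 and -0.55. Ttr was then at -5.94 and -6.61, where all gave 0.75 and 2.13. Cd74, Ttr and Cst7 were leading genes of subgroup 5, and the reference cells were kept whole. Lower values of these genes without subgroup 5 were therefore built in.

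**Figure D4:**
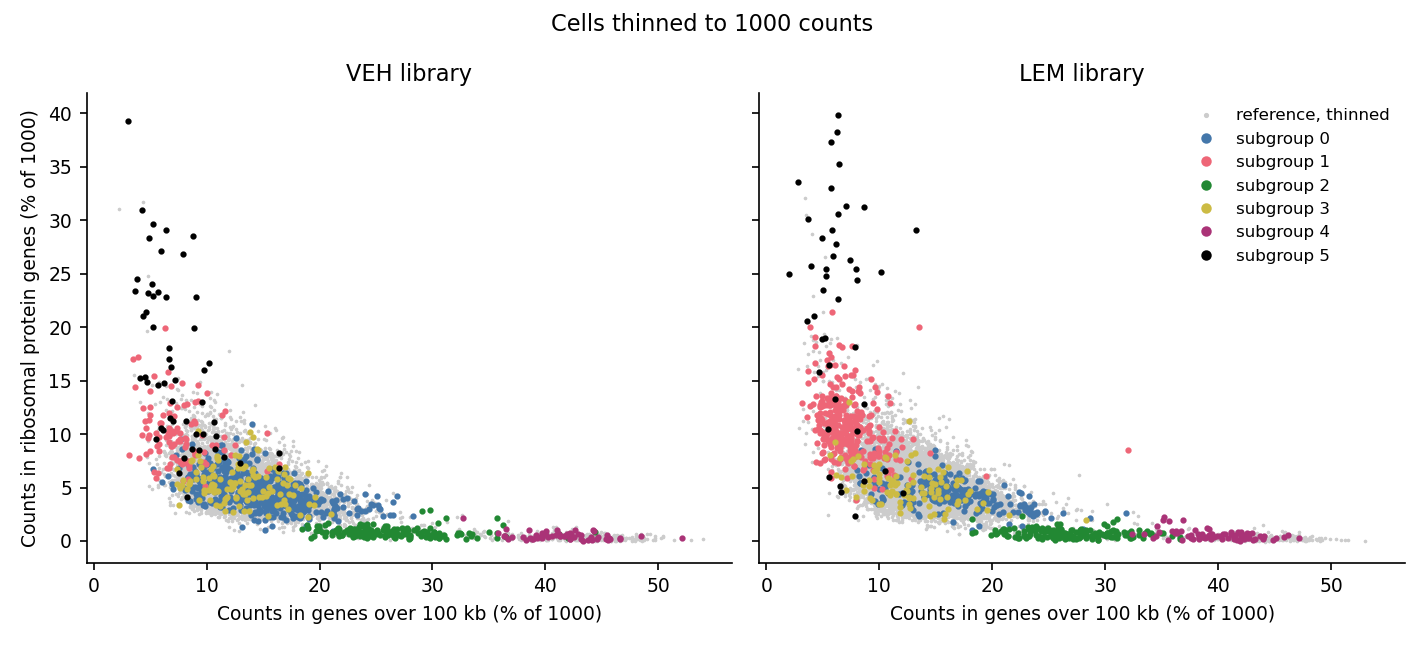
Each point is 1 cell thinned to 1000 counts, by its share of counts in genes over 100 kb (x axis, percent) and in ribosomal protein genes (y axis, percent), for VEH (left) and LEM (right); grey points are reference cells, colours the 6 subgroups of shallow cells. Subgroups 2 and 4 lie at the low end of ribosomal share, subgroups 1 and 5 at the high end with few counts in long genes, and subgroups 0 and 3 on the reference cells.

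**Figure D5:**
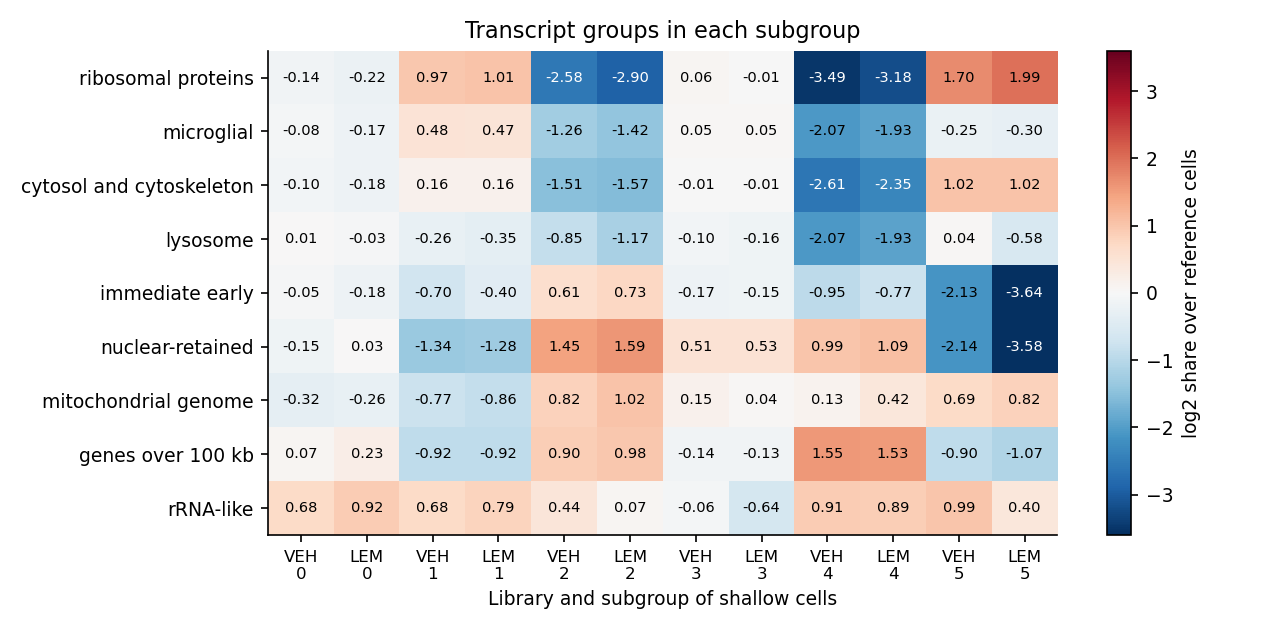
Log2 ratio of the share of counts in 9 transcript groups (rows) in each subgroup of shallow cells over reference cells of the same library (columns, VEH and LEM beside each other). Ribosomal protein genes run from -3.49 in subgroup 4 to 1.99 in subgroup 5, and genes over 100 kb from -1.07 in subgroup 5 to 1.55 in subgroup 4.

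The last comparison set LEM against VEH within shallow cells, beside the same ratio in reference cells. Across 3736 genes, Pearson's r between the ratios in the 2 classes was 0.47 and Spearman's rho 0.32, over genes of the same libraries. Several genes differed in the same direction at both depths. Apoe, a lipid carrier gene raised in DAM, was higher in LEM by 0.80 (0.72–0.88) on the log2 scale in shallow cells and by 0.76 in reference cells. Slc1a3, a glutamate transporter gene, was at -0.98 (-1.09 to -0.88) and -0.70, Cfap77 at -1.67 and -1.84, the glycolytic gene Gapdh at 1.48 and 1.19, and Ly6e, an interferon-induced gene, at 0.92 and 1.01. Other genes differed between the libraries mainly among the shallow cells. P2ry12 was at -0.54 (-0.60 to -0.48) in shallow and -0.06 in reference cells, Serinc3 at -0.68 and -0.03, and C1qa at 0.36 and 0.07.

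The ribosomal protein list had a LEM over VEH ratio of 0.34 in shallow cells and 0.07 in reference cells. Within subgroup 0 it was -0.01, and there P2ry12 was at -0.19 and Serinc3 at -0.28. P2ry12 and Serinc3 were leading genes of subgroup 0, and the clusters were formed from these same data. Smaller ratios of these 2 genes within it than in all shallow cells are therefore no finding. C1qa was at -0.11 (-0.16 to -0.05) within subgroup 0, opposite to all shallow cells. Subgroup 1, where P2ry12 and Serinc3 were low, held a larger share of LEM than of VEH shallow cells. Within subgroup 0 Apoe was at 1.25 and Slc1a3 at -0.69. The part of subgroup make-up in the ratio of any 1 gene was not tested. Ttr was at 2.83 in shallow and 1.45 in reference cells, and Cd74 at -1.48 and 0.35. Subgroup 5 held 99.1% of VEH and 99.8% of LEM Ttr counts of shallow cells, and 72.9% and 12.3% of their Cd74 counts. Within subgroup 0 Cd74 was at 1.27 (0.68–1.86), opposite to all shallow cells.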

How the data were processed

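Single-cell libraries of sorted microglia from 5 pooled mice per treatment were analysed, 1 VEH and 1 LEM library. The authors made 10x Genomics 5′ libraries, counted UMIs with Cell Ranger 8.0.0 on mm10, and named SoupX for ambient RNA. They kept cells with at least 500 genes, at most 20000 counts and at most 2.5% of counts from mitochondria. The paper also reports leaving out clusters that marker genes showed to be non-microglial. Whether the deposited cells had passed that step could not be told. The authors deposited whole-number counts of 32285 genes in 42766 cells. Whether these include the SoupX correction could not be told. Total counts were 116229678 in VEH and 160752298 in LEM, with medians of 5971 and 6034 per cell. Deposited cell names are serial numbers, so shared barcodes could not be counted.

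Counts were summed over shallow cells (under 2000 counts) and reference cells (4000 to below 8000 counts) of each library. Shares have Clopper-Pearson intervals, ratios of summed counts have conditional binomial intervals, and the ratio of 2 shares of cells has a log-normal interval, all at 95%. Genes needed a mean CPM of at least 20 over both classes in each library. "Lower" and "higher" for genes and lists mean the sign of the log2 ratio. Thinning drew 1000 counts per cell without replacement. Clustering of shallow cells used Seurat 5.3.0 under R 4.3.3 (2000 variable genes, 20 principal components, 30 neighbours, resolution 0.5), and clusters were named only from at least 3 markers among the 20 leading genes. Doublets were called with Scrublet in scanpy 1.11.5 and kept in the values given first. Its automatic threshold marked 0 VEH cells, so the LEM threshold of 0.321 was used for both, which marked 13.1% of VEH and 12.8% of LEM cells (1.99% and 1.89% of shallow cells). The ratio steps were tested on simulated data. Gene spans come from GENCODE M21 (GRCm38). Scripts ran in Python 3.11.15 with scipy 1.17.1 for intervals, numpy 2.4.6, matplotlib 3.10.9 for plots, and pandas 2.3.3.

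Named genes are those of the gene lists, the 15 highest and 15 lowest mean log2 ratios of the same sign in both libraries, and for LEM over VEH the 10 largest and 10 smallest among genes of at least 50 mean CPM. Some results that this rule would name are not reported here. The limit of 2000 counts and the lists were chosen with earlier results of these data known. Alternatives were other count limits and reference cells, scalings, expression filters, cells without doublets and a resolution of 1.0. Leaving out subgroups 5 or 4 was added after the data had been seen. Their cells were taken out of the shallow cells only, and the reference cells were kept whole.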

Additional observations from a re-analysis of the deposited data

Results flagged for a closer look

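For 4 gene lists the difference between shallow and reference cells had opposite signs in the VEH and LEM libraries. The intervals excluded 0 in both libraries, but they cover counting error only. They leave out the spread between cells, so they do not settle the sign. Lists whose interval held 0 in either library were not counted, such as proliferation genes at -0.20 and 0.12 (-0.02 to 0.25). The difference between the libraries was not tested, since each treatment has 1 library. Ribosomal protein genes were at -0.053 in VEH and 0.22 in LEM on the log2 scale, and nuclear genes of oxidative phosphorylation at -0.12 and 0.12. Splicing-related genes were at 0.071 and -0.079. MHC class II genes were at 0.79 and -0.45. Without the 108 cells of subgroup 5, MHC class II genes were at -0.29 and -0.50, with the same sign, and oxidative phosphorylation genes at -0.24 and -0.0030 (-0.027 to 0.020), with no clear sign in LEM. Ribosomal protein genes were then at -0.24 and 0.057 and splicing-related genes at 0.11 and -0.031, still with opposite signs. Several MHC class II genes were leading genes of subgroup 5, and the reference cells were kept whole. A lower value of that list without subgroup 5 was therefore built in.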

How the results depend on the processing

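No paired analysis was possible because each treatment has 1 library and no test was made. Of 98 values recomputed, 35 moved by less than their counting interval (numbers of genes or subgroups, by at most 1.5 times), 59 moved by more and 4 changed sign from an interval that excluded 0. A further value whose interval held 0, the nuclear-retained ratio of LEM over VEH, also changed sign. All values below are in the order VEH, LEM and, for lists, log2 ratios of shallow over reference cells. The cause of these changes was not tested. Limits of 1500 and 2500 counts and leaving out doublets gave shallow shares of 4.10% and 2.92%, 10.3% and 6.90%, and 8.01% and 5.60%. With the limit of 1500 counts, ribosomal RNA-like genes were at 0.67 and 0.81, nuclear-retained at 0.14 and 0.16, the mitochondrial genome, reversed, at -0.13 and -0.12, ribosomal proteins at -0.0072 and 0.30 and microglial genes at -0.14 and -0.073. Ratios of LEM over VEH in these cells were 0.15, -0.030 and 0.38 for ribosomal RNA-like, nuclear-retained and ribosomal protein genes, against 0.0036, 0.0062 and 0.34 for cells under 2000 counts. With reference cells of 8000 to 20000 counts, the same lists were at 0.37 and 0.40, 0.53 and 0.59, -0.18 and -0.10 (reversed), -0.24 and 0.062, and -0.20 and -0.13. With the mean of shares over cells they were at 0.65 and 0.69, 0.26 and 0.32, 0.025 and 0.070, -0.041 and 0.23, and -0.19 and -0.12. Totals without the 20 most abundant genes gave 0.58 (ribosomal RNA-like, VEH), 0.31 (nuclear-retained, VEH), -0.077 and 0.21 (ribosomal proteins) and -0.23 and -0.15 (microglial). Without doublets, ribosomal proteins were at -0.039 and 0.23 and microglial genes at -0.20 and -0.13. Without subgroup 5, ribosomal RNA-like genes were at 0.58 in VEH, nuclear-retained at 0.39 and 0.44, the mitochondrial genome at 0.014 and 0.057, ribosomal proteins at -0.24 and 0.057, and microglial genes at -0.13 in LEM. Genes at least 2-fold higher and lower in both libraries numbered 26 and 2 at a mean CPM of at least 5 and 2 and 0 at 50, where 20 gave 4 and 0. The lower ones numbered 1 with the limit of 1500 counts, 2 with the deeper reference cells and 1, Ttr, without subgroup 5. Ttr led subgroup 5 and its counts in reference cells were kept, so this last call was built in. A resolution of 1.0 gave 9 subgroups, and subgroups 1, 2, 4 and 5 stayed largely whole. Low counts limit genes near the expression filter, and the filter on genes per cell limits what can be seen below 1000 counts.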
